A study of Mus musculus with 32 samples.

Results

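The arrays described here come from the Bmp10-high atrium of 4 mice with both a dominant negative phosphoinositide 3-kinase (dnPI3K) and an Mst1 transgene, called dnPI3K-Mst1, and of 4 mice with the Mst1 transgene alone. The arrays were chosen by their measured Bmp10 level: an array was kept when that signal was above 9 log2, whatever side its label gives, and dnPI3K-Mst1 was then compared with Mst1 over all genes. The rule kept 8 of the 32 arrays of the series, 1 per animal. The series holds 1 array for each atrium of 16 mice, 4 each of non-transgenic controls (Ntg), dnPI3K, Mst1 and dnPI3K-Mst1. Every group, the controls included, was on a combined C57BL/6 and FVB/N background, ate standard chow and lived on a regular day and night cycle. The labels give neither age nor sex, and they do not say whether the animals of a group shared a litter, so the tests speak of variation among these mice and no further. Both groups compared carry Mst1, and the labels set them apart by the dnPI3K transgene.

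Phosphoinositide 3-kinase (PI3K) passes insulin and growth factor signals to the kinase Akt, and in the heart it supports physiological growth and survival. A dominant negative form lowers that signal. The Hippo kinase Mst1 is the product of Stk4, and its pathway holds back the coactivators YAP and TAZ and their TEAD partners, and excess Mst1 promotes death of cardiac myocytes. Published mouse lines of both kinds express the transgene in cardiac myocytes through a myosin heavy chain promoter. The labels name neither the promoter nor the part of PI3K that was used, and PI3K activity was not among the measurements. Bmp10, a ligand of the BMP family, is made in the adult mouse heart by myocytes of the right atrium, which is why it can tell the chambers apart.

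Bmp10 chose the arrays, so its levels are given as a description. It read 11.42, 12.44, 12.51 and 12.55 log2 in Mst1 animals 1466, 1838, 1839 and 1840. It read 12.30, 12.23, 12.60 and 12.39 in dnPI3K-Mst1 animals 1509, 1647, 1649 and 1650. Over all 32 arrays the lowest value above the threshold was 11.42, in Mst1 1466, and the highest below it was 6.64, on the other array of Mst1 1839. All 16 animals had 1 array on each side of the gap. Of the 8 arrays kept, 7 are labelled left and that of Mst1 1839 is labelled right, so Bmp10 and the side labels did not match, and the arrays are named here by Bmp10 and not by side. The atrial light chain gene Myl7 was at 12.16 ± 0.17 log2 (SD, n = 4) in Mst1 and 12.11 ± 0.11 in dnPI3K-Mst1, among the brighter genes on the arrays.

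**Figure D1:**
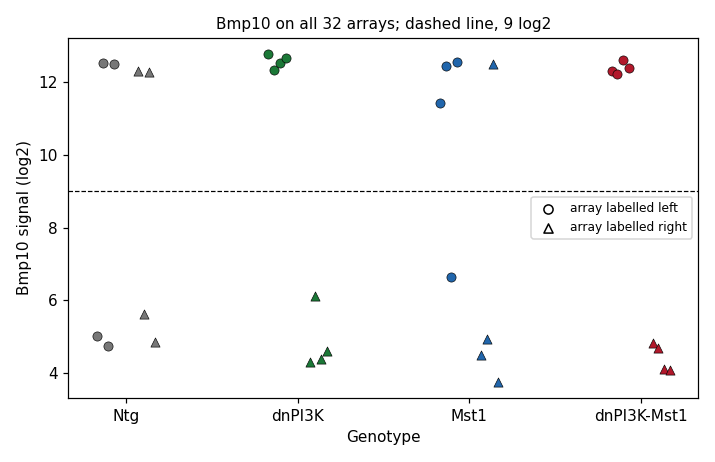
Bmp10 signal (log2, vertical axis) on all 32 arrays by genotype, with circles for arrays labelled left and triangles for arrays labelled right. The dashed line is the threshold of 9 log2; no array lies between 6.64 and 11.42, and Mst1 1466 is the lowest of the upper points.

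Levels are deposited log2 signals of probe sets, and array medians lay between 5.51 and 5.68 over the series. Among the 8 arrays kept, Mst1 1466 stood apart, with a mean correlation of 0.963 with the other arrays against 0.980 to 0.985 for each of the others, and it also had the lowest Bmp10. Counts and medians of gene lists that moved without that animal are given with and without it. Stk4 was at 8.03, 8.42, 8.14 and 8.37 in the Mst1 animals and at 8.22, 8.41, 8.51 and 8.38 in dnPI3K-Mst1, while it averaged 7.53 ± 0.18 (SD, n = 4) in Ntg and 7.64 ± 0.28 in dnPI3K, with no animal of those as high as 8.03. Every animal labelled with Mst1 was thus above every animal without it, and Mst1 and dnPI3K-Mst1 overlapped (difference 0.14 ± 0.13 log2, SE, adjusted p = 0.86). The arrays measure whole tissue, in which fewer cells of a type and less RNA per cell cannot be told apart.

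The comparison asked what dnPI3K added to atria that already carried Mst1. Most called genes were higher in dnPI3K-Mst1, and secreted, matrix and growth factor genes were among the largest rises. Sfrp2, Emb, Chrdl1, Svep1 and Slc40a1 rose by 1.29 to 1.68 log2, and Penk fell most, by 1.44. Of 15219 genes tested, limma called 108 at an adjusted p under 0.05, which is 0.71%. Of these 100 were higher in dnPI3K-Mst1 (0.657% of the genes tested) and 8 were lower (0.0526%), with 19 and 1 past a 2-fold change. All 108 had groups that did not overlap, against 6.54% of all genes tested (5.37% with dnPI3K-Mst1 above and 1.16% with it below). The median difference of all genes was 0.03 log2. Quantile normalization left 82 higher and 18 lower, so that 82% of its calls were higher in place of 92.6%.

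**Figure D2:**
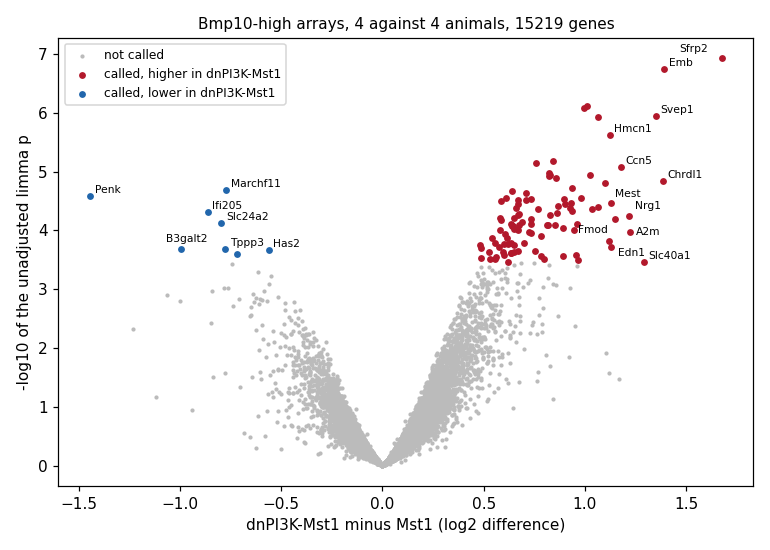
Each point is 1 of 15219 genes, with the log2 difference between dnPI3K-Mst1 and Mst1 in Bmp10-high arrays on the horizontal axis and minus the log10 of limma's unadjusted p on the vertical axis. The called genes, 100 higher in red and 8 lower in blue, include Sfrp2 at 1.68 and Penk at -1.44.

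The number of calls moved with single animals. It was 379 (238 higher, 141 lower) without Mst1 1466, 7 without Mst1 1839, 12 without dnPI3K-Mst1 1649, 14 without dnPI3K-Mst1 1647 and 41 without either dnPI3K-Mst1 1509 or dnPI3K-Mst1 1650. All 108 genes were called in the same direction without Mst1 1466, and no called gene's difference moved by more than 1.5 times in any of the 8 fits that left out 1 animal. The genes called in all 8 of those fits were 7: Sfrp2, Emb, Svep1, Hmcn1, Sprr1a, Piezo2 and Bace2. Another 13 were called in 1 of the 8 only.

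Sfrp2 encodes a secreted protein that binds Wnt ligands and acts in matrix maturation. It read 9.58, 9.58, 9.09 and 8.98 log2 in Mst1 and 11.20, 11.15, 10.87 and 10.69 in dnPI3K-Mst1, in the order of animals given above (probe set 10492798). Every double transgenic animal was above every Mst1 animal, by more than 1 log2, and the rise was 3.2-fold (1.68 ± 0.16, adjusted p = 0.0013). Emb, embigin, an adhesion glycoprotein that escorts monocarboxylate transporters to the membrane, read 7.09, 7.03, 6.59 and 6.71 against 8.13, 8.17, 8.48 and 8.21 (1.39 ± 0.14, adjusted p = 0.0013). Here too the groups were apart, with the double transgenic animals close together.

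Svep1 and Hmcn1 encode very large matrix proteins built from repeated domains. Svep1, which binds integrins and takes part in lymphatic vessel growth, read 7.82, 8.60, 8.36 and 8.57 in Mst1 and 9.59, 9.76, 9.70 and 9.70 in dnPI3K-Mst1 (1.35 ± 0.16, adjusted p = 0.003). The low Mst1 value was that of animal 1466, and without it the difference was 1.18. Hmcn1, hemicentin 1, read 9.24, 9.65, 9.54 and 9.33 against 10.32, 10.85, 10.69 and 10.38 (1.12 ± 0.14, adjusted p = 0.0052), with all dnPI3K-Mst1 animals above all Mst1 animals. Sprr1a, a small proline-rich protein induced in stressed myocytes, was at 6.78 to 6.89 in Mst1 and 7.60 to 8.11 in dnPI3K-Mst1 (1.06 ± 0.13, adjusted p = 0.003). Piezo2, a mechanically gated channel, rose by 1.01 ± 0.12 and Bace2, an aspartyl protease, by 1.00 ± 0.12 (adjusted p = 0.003 each).

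The promoters of 4 called genes are shown because they carry letters that factors of these pathways are known to bind. The motifs searched, on both strands, were GTAAACA for FoxO factors, which PI3K signalling holds out of the nucleus, GGAATG for TEAD factors, TGANTCA for AP-1 and, for interferon-stimulated response elements (ISRE), GAAA followed by any 2 bases and a second GAAA. No pair of these motifs overlapped in the sequences printed. The promoters of the called genes Sfrp2, Emb and Ifit2 were searched too and held no match to any of these motifs. The sequences are RefSeq's on mouse build GRCm38.p6, from 250 bases before to 50 after the annotated start, 5′ to 3′ on the gene's strand, with matches in capitals. Hmcn1 (chr1:150993386-150993685, minus strand) holds a TEAD and a FoxO match, Svep1 (chr4:58206547-58206846, minus strand) a TEAD match, Edn1 (chr13:42301226-42301525, plus strand) a TEAD and an ISRE match, and Ifit3 (chr19:34583279-34583578, plus strand) a pair of ISRE matches and an AP-1 match.
Hmcn1: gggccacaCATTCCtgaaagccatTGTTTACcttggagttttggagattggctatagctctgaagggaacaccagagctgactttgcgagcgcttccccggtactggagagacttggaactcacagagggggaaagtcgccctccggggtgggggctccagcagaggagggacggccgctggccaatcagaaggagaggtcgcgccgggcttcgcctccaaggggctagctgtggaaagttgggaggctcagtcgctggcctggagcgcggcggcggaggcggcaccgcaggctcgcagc
Svep1: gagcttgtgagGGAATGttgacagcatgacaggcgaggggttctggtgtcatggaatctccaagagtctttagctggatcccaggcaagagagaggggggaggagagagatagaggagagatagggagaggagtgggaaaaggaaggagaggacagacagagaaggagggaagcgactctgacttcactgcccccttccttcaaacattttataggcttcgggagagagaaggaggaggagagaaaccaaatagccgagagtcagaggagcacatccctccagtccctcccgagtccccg
Edn1: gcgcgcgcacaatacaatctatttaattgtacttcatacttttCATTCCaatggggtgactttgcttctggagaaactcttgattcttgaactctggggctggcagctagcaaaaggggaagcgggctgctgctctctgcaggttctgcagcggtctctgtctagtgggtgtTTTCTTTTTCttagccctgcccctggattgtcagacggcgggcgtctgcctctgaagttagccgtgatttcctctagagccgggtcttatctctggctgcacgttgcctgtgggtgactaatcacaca
Ifit3: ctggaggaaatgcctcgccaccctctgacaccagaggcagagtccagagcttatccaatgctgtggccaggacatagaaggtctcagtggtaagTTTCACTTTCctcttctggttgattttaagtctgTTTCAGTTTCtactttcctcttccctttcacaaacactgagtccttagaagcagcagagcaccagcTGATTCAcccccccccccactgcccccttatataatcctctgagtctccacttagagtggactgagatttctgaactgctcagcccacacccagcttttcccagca

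A promoter was in the table for 70 of the 100 higher genes, 5 of the 8 lower genes and 11985 of the 15219 genes tested. The TEAD letters occurred in 12 of the 70 (17.1%, against 14.6% of all promoters), the FoxO letters in 2 (2.86% against 3.17%) and the AP-1 letters in 5 (7.14% against 6.65%). The ISRE letters occurred in 10 of the 70 (14.3% against 3.54%), in Colec11, Cybb, Edn1, Esr1, Gpm6a, Ifit3, Mecom, P3h3, Pilra and Slc13a4. Among the 5 lower genes with a promoter the ISRE letters occurred in 1 (20%), Ifi205, the AP-1 letters in 1 (20%) and the TEAD and FoxO letters in none. These shares describe letters in a window of 300 bases, with no test, and a match is not a bound site.

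Genes of growth factor signalling held several of the rises. Nrg1, neuregulin 1, a ligand of ERBB receptors on myocytes, read 7.12, 8.31, 7.78 and 8.09 in Mst1 and 8.93, 8.94, 9.26 and 9.05 in dnPI3K-Mst1 (1.22 ± 0.21, adjusted p = 0.019). Edn1, the precursor of the vasoconstrictor endothelin 1, read 6.77, 8.16, 7.68 and 7.68 against 8.71, 8.61, 8.76 and 8.73 (1.13 ± 0.22, adjusted p = 0.035). In both genes the groups did not overlap, Mst1 1466 was the lowest value, and without it the differences were 0.98 and 0.86. Agtr1a, the main angiotensin II receptor, rose by 0.49 ± 0.10 (adjusted p = 0.043), from 5.35 to 5.66 in Mst1 to 5.97 to 6.11 in dnPI3K-Mst1. These are 3 of the 15 tested genes of ERBB, endothelin and angiotensin signalling, none was called lower, and the median of that list was 0.06. The list had 3 genes higher and 1 lower without Mst1 1466, with a median of 0.08. The receptors Erbb4 (-0.03 ± 0.17) and Ednrb (0.05 ± 0.12) were not called. Nrg1 and Edn1 were called in 3 of the 8 fits without 1 animal and Agtr1a in 1.

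Among modulators of BMP and Wnt ligands the called members were inhibitors and 1 ligand. Chrdl1, a secreted BMP antagonist, read 5.86, 6.22, 5.87 and 6.21 in Mst1 and 8.14, 7.42, 7.21 and 6.93 in dnPI3K-Mst1 (1.39 ± 0.21, adjusted p = 0.014). The dnPI3K-Mst1 animals were spread over more than 1 log2, with animal 1509 the highest, but none reached down to the Mst1 range. Gdf6, a BMP family ligand, rose by 0.86 ± 0.13 (adjusted p = 0.013). They are 2 of 34 tested genes of TGF-beta, BMP and activin signalling, with none lower and a list median of 0.20. In the fit without Mst1 1466 that list had 2 genes higher and 1 lower, with a median of 0.10. Sfrp1, the relative of Sfrp2, rose by 0.83 ± 0.12 (adjusted p = 0.013), which makes 2 of 19 Wnt modulators higher and none lower, with a median of 0.07. Ccn5, a matricellular protein of the CCN family that lacks the usual C-terminal domain, read 7.89, 8.14, 7.89 and 8.15 against 9.27, 9.67, 9.05 and 8.80 (1.18 ± 0.17, adjusted p = 0.013) and was called in 7 of the 8 fits. Spry1, a feedback inhibitor of receptor tyrosine kinase signalling, rose by 0.60 ± 0.12 (adjusted p = 0.04) and was the only called gene of the 18 in the MAP kinase feedback list (median 0.16). The MAP kinase list had 1 gene higher and 1 lower without Mst1 1466, with a median of 0.03.

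Matrix genes gave the largest list count. Of 51 tested genes of the collagens and matrix list 9 were called higher and 1 lower, and 48 had a positive difference. In 18 of the 51 the groups did not overlap with dnPI3K-Mst1 above, against 5.37% of all genes tested. The list median was 0.43, against 0.03 for all genes, and 0.31 without Mst1 1466. Fmod, fibromodulin, which guides collagen fibril assembly, read 6.48, 7.20, 6.86 and 7.30 in Mst1 and 8.06, 8.61, 7.97 and 7.78 in dnPI3K-Mst1 (1.15 ± 0.20, adjusted p = 0.02), with no overlap. Mfap4 (0.93 ± 0.15), Thbs2 (0.89 ± 0.18) and the fibril-associated collagen Col14a1 (0.80 ± 0.16) also rose. The other rises were the protease gene Ctsk (0.74), the basement membrane collagen Col4a4 (0.71), Col8a1 (0.69) and the crosslinking enzymes Loxl3 (0.73) and Loxl1 (0.70), named after their values were seen. Has2, a hyaluronan synthase, fell by 0.56 (adjusted p = 0.038).

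The fibrillar collagen Col1a1 was not called, reading 9.26, 9.91, 9.83 and 10.44 against 9.92, 10.72, 10.37 and 10.34 (0.48 ± 0.22, adjusted p = 0.53), and its groups overlapped. Thbs1, a matrix protein that activates TGF-beta, had groups that did not overlap, at 8.09 to 9.01 and 9.16 to 10.57, yet was not called (0.95 ± 0.28, adjusted p = 0.19). The mean level of the collagens and matrix list was 7.62 to 8.08 in Mst1 and 8.15 to 8.53 in dnPI3K-Mst1. The list held no called higher gene without Mst1 1839, without dnPI3K-Mst1 1647 or without dnPI3K-Mst1 1649, and 12 without Mst1 1466. Matrix proteases and inhibitors had no call among 26, with a median of 0.25, and 1 higher with a median of 0.17 without Mst1 1466.

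Cell type markers moved with these groups as follows. The cardiac fibroblast list had 2 of 18 higher, Islr (0.67 ± 0.12) and Abca8a (0.65 ± 0.12), a median of 0.15, and a mean level of 8.62 to 8.82 in Mst1 and 8.90 to 8.97 in dnPI3K-Mst1. Pdgfra, a defining fibroblast receptor, was at 0.33 ± 0.13 (adjusted p = 0.42). The activated fibroblast list had 1 of 16 higher, Sfrp2 itself, with a median of 0.39 and a mean level of 7.29 to 7.81 against 7.82 to 8.12. The mesothelium list, for the cells that cover the heart, had 1 of 12 higher, the membrane glycoprotein Gpm6a (0.89 ± 0.16, adjusted p = 0.022), with a median of 0.37 and a mean level of 5.84 to 6.74 against 6.57 to 7.12. Its defining genes Upk3b (0.77 ± 0.33, adjusted p = 0.47) and Wt1 (0.40 ± 0.12, adjusted p = 0.22) were not called. Without Mst1 1466 the cardiac fibroblast list had 3 genes higher (median 0.10), the activated fibroblast list 1 (median 0.32) and the mesothelium list 1 (median 0.26), with none lower. The part of these cells in the matrix result was not tested.

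Of the 19 endothelial markers none was called. Some called genes outside that list, chosen after their values were seen, are known from blood vessels. Angpt2, a ligand of the endothelial receptor Tek, read 5.36, 6.59, 6.14 and 6.49 in Mst1 and 7.38, 7.05, 7.32 and 7.31 in dnPI3K-Mst1 (1.12 ± 0.21, adjusted p = 0.031). Nrp1, a coreceptor for VEGF and semaphorins, read 8.77, 9.66, 9.41 and 9.20 against 10.20, 10.52, 10.40 and 10.32 (1.10 ± 0.17, adjusted p = 0.014). Both genes were lowest in Mst1 1466, and without it their differences were 0.86 and 0.93. The lymphatic growth factor Vegfd rose by 1.06, the adrenomedullin receptor gene Calcrl by 0.96, the arterial connexin Gja4 by 0.94 and the kinase gene Bmx by 0.85. Among the endothelial markers 18 had a positive difference, with a median of 0.29 (0.03 for all genes) and a mean level of 8.55 to 9.21 in Mst1 against 9.17 to 9.28 in dnPI3K-Mst1. Pecam1 was at 0.10 ± 0.16 and Kdr at 0.06 ± 0.22, while Tek did not overlap between groups (0.48 ± 0.12, adjusted p = 0.12). Without Mst1 1466 limma called 2 endothelial markers higher and the list median was 0.21. Whether vessel content moved these genes was not tested.

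Macrophage and monocyte markers gave no call among 26 in the 8 arrays, with 21 positive differences and a median of 0.20 (0.03 for all genes). Their mean levels did not overlap, at 7.12 to 7.19 in Mst1 and 7.29 to 7.43 in dnPI3K-Mst1, and 6 were called higher without Mst1 1466. Cd68 (0.45 ± 0.11, adjusted p = 0.087) and the growth factor receptor Csf1r (0.46 ± 0.12, adjusted p = 0.15) had groups that did not overlap. Smooth muscle and pericyte markers had no call among 15 (median 0.22, and 3 higher without Mst1 1466). Adipocyte (median -0.11), Schwann and neuronal (-0.02) and T and B lymphocyte markers (-0.04) had no call among 10, 11 and 7. Without Mst1 1466 these medians were 0.06, -0.04 and 0.06, so that those of adipocytes and lymphocytes turned sign, and 1 Schwann and neuronal marker was called lower.

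**Figure D3:**
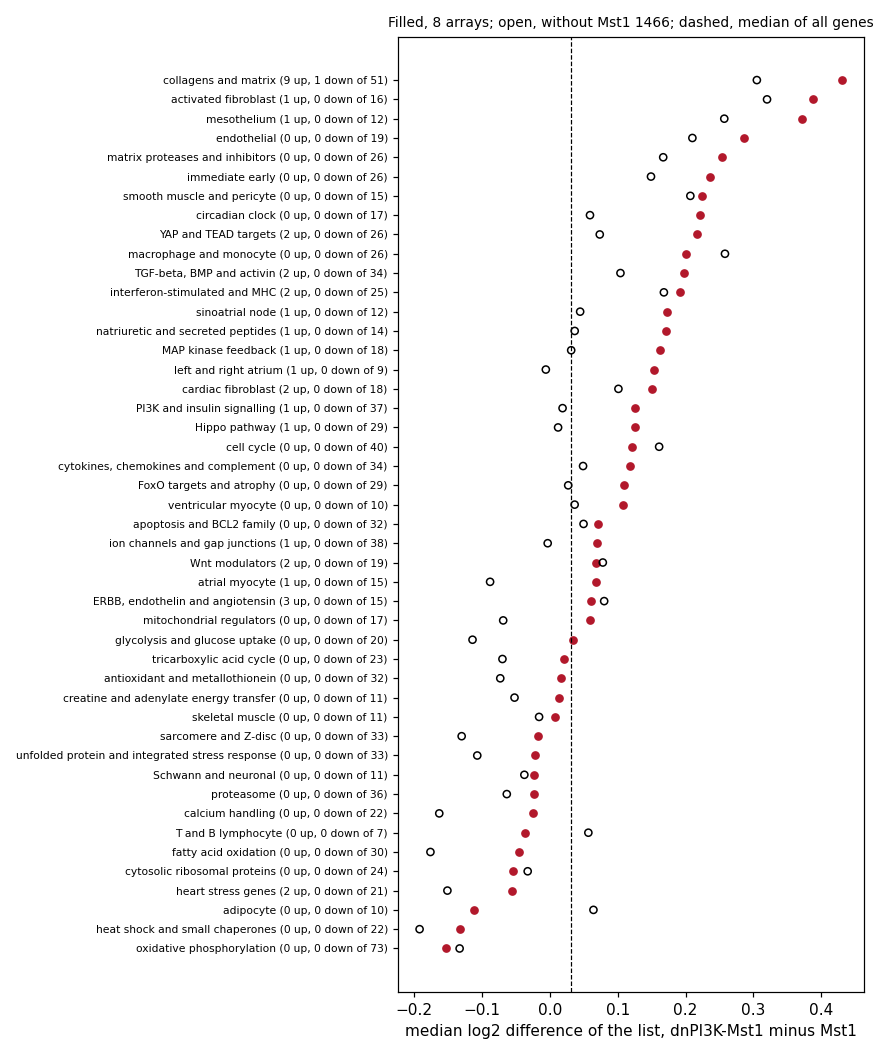
Median log2 difference (horizontal axis) between dnPI3K-Mst1 and Mst1 for each gene list with at least 5 tested genes, with filled points for all 8 arrays, open points for the fit without Mst1 1466, a dashed line at 0.03 for the median of all genes, and the numbers of called genes in the labels. The collagens and matrix list lies farthest right at 0.43 and oxidative phosphorylation farthest left at -0.15.

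Single genes of atrial conduction and of iron handling were among the rises. Gja5, the atrial gap junction protein connexin 40, read 8.75, 8.29, 8.19 and 8.30 in Mst1 and 9.13, 9.33, 9.50 and 9.15 in dnPI3K-Mst1 (0.90 ± 0.14, adjusted p = 0.016). The groups were apart. Ntg read 9.49 to 9.97, above all Mst1 animals, and of the dnPI3K-Mst1 animals only 1649, at 9.50, reached that range. Gja5 was the only called gene of 38 ion channel and gap junction genes (median 0.07) and of 15 atrial myocyte markers (median 0.07). Without Mst1 1466 the first list had 3 genes higher (median -0.00322) and the second 1 higher and 1 lower (median -0.09). Cacna1g, a T-type calcium channel of pacemaker cells, rose by 0.67 ± 0.11 (adjusted p = 0.018) and was the only called gene of 12 sinoatrial node markers. Of these 12, 3 had groups that did not overlap with dnPI3K-Mst1 above (5.37% of all genes) and 2 with it below (1.16%). The sinoatrial list had 3 genes higher and 1 lower without Mst1 1466, and its median was 0.04 in place of 0.17. Hamp, the iron hormone hepcidin, which the heart also makes, read 8.06, 8.36, 8.07 and 8.29 against 8.86, 9.09, 8.98 and 9.56 (0.93 ± 0.15, adjusted p = 0.017), while Ntg lay at 10.45 to 11.12. Slc40a1, the iron exporter ferroportin on which hepcidin acts, read 5.77, 5.77, 5.54 and 5.61 against 7.25, 7.87, 6.56 and 6.18 (1.29 ± 0.27, adjusted p = 0.049). The Mst1 animals were within 0.23 log2 of each other there and the dnPI3K-Mst1 animals ranged widely, and the gene was called in 2 of the 8 fits without 1 animal.

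Pik3ca, the catalytic subunit p110 alpha, was the only called member of 37 PI3K and insulin signalling genes, and none was called lower. The labels do not name the part of PI3K used, and whether this probe set also reads the transgene was not tested. The list median was 0.13, and 0.02 without Mst1 1466. Pik3ca read 8.99, 9.76, 9.69 and 9.74 in Mst1 and 10.37, 10.26, 10.40 and 10.27 in dnPI3K-Mst1 (0.78 ± 0.16, adjusted p = 0.041). Mst1 1466 was again the lowest, and without it the difference was 0.60. The regulatory subunit gene Pik3r1 was at 0.29 ± 0.12 (adjusted p = 0.47), Igf1r at 0.35 ± 0.26 and Irs1 at 0.07 ± 0.17, none called. FoxO targets and atrophy genes, which PI3K signalling represses, had no call among 29, with a median of 0.11. Without Mst1 1466 there was 1 higher, and the median was 0.03.

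In the Hippo pathway list 1 of 29 genes was called higher, Vgll3 (0.73 ± 0.13, adjusted p = 0.02), a cofactor that binds TEAD factors in place of YAP. None was called lower. The list median was 0.12, and 0.01 without Mst1 1466. Yap1 (0.12 ± 0.15) and Tead1 (0.29 ± 0.18) were not called. YAP and TEAD targets had 2 of 26 higher, Edn1 and the membrane repair gene Myof (0.65 ± 0.13, adjusted p = 0.038), none lower and a median of 0.22, which was 0.07 without Mst1 1466. The usual reporters of that pathway, Ccn1 (0.57 ± 0.26) and Ccn2 (0.15 ± 0.26), overlapped between groups. Of 25 interferon-stimulated and MHC genes 2 were called higher, Ifit3 (0.82 ± 0.12, adjusted p = 0.013) and Ifit2 (0.67 ± 0.11, adjusted p = 0.016), which encode antiviral proteins. None was called lower, and 5 were higher without Mst1 1466. Ifit3 read 6.10, 5.90, 5.95 and 5.64 against 6.66, 6.76, 6.89 and 6.57, with no overlap. Immediate early genes had no call among 26 (median 0.24), and 1 was lower without Mst1 1466 (median 0.15).

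The 6 lists of energy supply and contraction examined here had no called gene in the 8 arrays. They were oxidative phosphorylation (73 genes, median -0.15), the tricarboxylic acid cycle (23, 0.02, or -0.0255 after quantile normalization), fatty acid oxidation (30, -0.04), sarcomere and Z-disc (33, -0.02), calcium handling (22, -0.02) and glycolysis (20, 0.03). Oxidative phosphorylation genes were below 0 in all but 8 of 73, where the median of all genes was 0.03. In 10 of the 73 the groups did not overlap with dnPI3K-Mst1 below, against 1.16% of all genes tested. Without Mst1 1466 the medians were -0.13 for oxidative phosphorylation, -0.07 for the tricarboxylic acid cycle, -0.18 for fatty acid oxidation, -0.13 for the sarcomere list, -0.16 for calcium handling and -0.11 for glycolysis. In that fit 2 genes of oxidative phosphorylation, 1 of fatty acid oxidation and 3 of the sarcomere list were called lower. Ckmt2, the mitochondrial creatine kinase, read 8.25, 8.55, 8.48 and 8.69 in Mst1 and 8.24, 7.26, 7.73 and 7.69 in dnPI3K-Mst1, which did not overlap by a margin of 0.01, and was not called (-0.76 ± 0.18, adjusted p = 0.089). Ckmt2 was called lower in 2 of the 8 fits without 1 animal, and also in dnPI3K against Ntg and in the Bmp10-low arrays, as given below. Ckm, the cytosolic muscle form, was at -0.54 ± 0.17 (adjusted p = 0.25). Of 21 heart stress genes 2 rose, Edn1 and Sprr1a, while Nppa (0.05 ± 0.06), Nppb (-0.24 ± 0.13) and Myh7 (0.23 ± 0.19) were not called. The heart stress list had a median of -0.06, and without Mst1 1466 it had 2 genes higher and 5 lower, with a median of -0.15.

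The 8 falls were few and of mixed kinds. Penk, the precursor of the enkephalin opioid peptides, read 7.57, 7.68, 7.73 and 7.79 in Mst1 and 6.93, 5.43, 6.32 and 6.32 in dnPI3K-Mst1 (-1.44 ± 0.23, adjusted p = 0.016). The Mst1 animals lay close together, and dnPI3K-Mst1 1647 was lowest. B3galt2, a galactosyltransferase, fell by 0.99, the interferon-inducible gene Ifi205 by 0.86, the sodium, calcium and potassium exchanger Slc24a2 by 0.80, the microtubule-binding gene Tppp3 by 0.78 and the ubiquitin ligase Marchf11 by 0.77. The B3galt2 values were 6.20, 6.99, 6.73 and 7.12 against 6.13, 5.68, 5.90 and 5.36, so Mst1 1466 was within 0.07 of the highest dnPI3K-Mst1 animal. Penk and Marchf11 were called in 6 of the 8 fits without 1 animal, and B3galt2 and Tppp3 in 1.

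Set beside the controls of the same chamber, the genes named above did not share 1 pattern. In the order Ntg, dnPI3K, Mst1, dnPI3K-Mst1 the mean level of Nrg1 was 5.25 ± 0.40, 6.51 ± 0.23, 7.83 ± 0.52 and 9.04 ± 0.16 log2 (SD, 4 animals each). Sfrp2 averaged 8.22 ± 0.42, 8.95 ± 0.09, 9.30 ± 0.32 and 10.98 ± 0.24, and Edn1 5.95 ± 0.32, 6.42 ± 0.22, 7.57 ± 0.58 and 8.70 ± 0.07. All 3 genes had their lowest mean in Ntg and their highest in the double transgenic animals. Gja5 (9.83 ± 0.23, 10.21 ± 0.21, 8.38 ± 0.25 and 9.28 ± 0.17), Hamp (10.77 ± 0.35, 10.01 ± 0.77, 8.20 ± 0.15 and 9.12 ± 0.31) and Slc40a1 (7.11 ± 0.21, 7.09 ± 0.16, 5.67 ± 0.12 and 6.96 ± 0.75) were lowest in Mst1. Penk was lowest in the double transgenic animals, at 9.53 ± 0.11, 9.24 ± 0.22, 7.69 ± 0.09 and 6.25 ± 0.62. Ckm averaged 10.73 ± 0.12, 10.09 ± 0.17, 7.16 ± 0.32 and 6.62 ± 0.28.

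**Figure D4:**
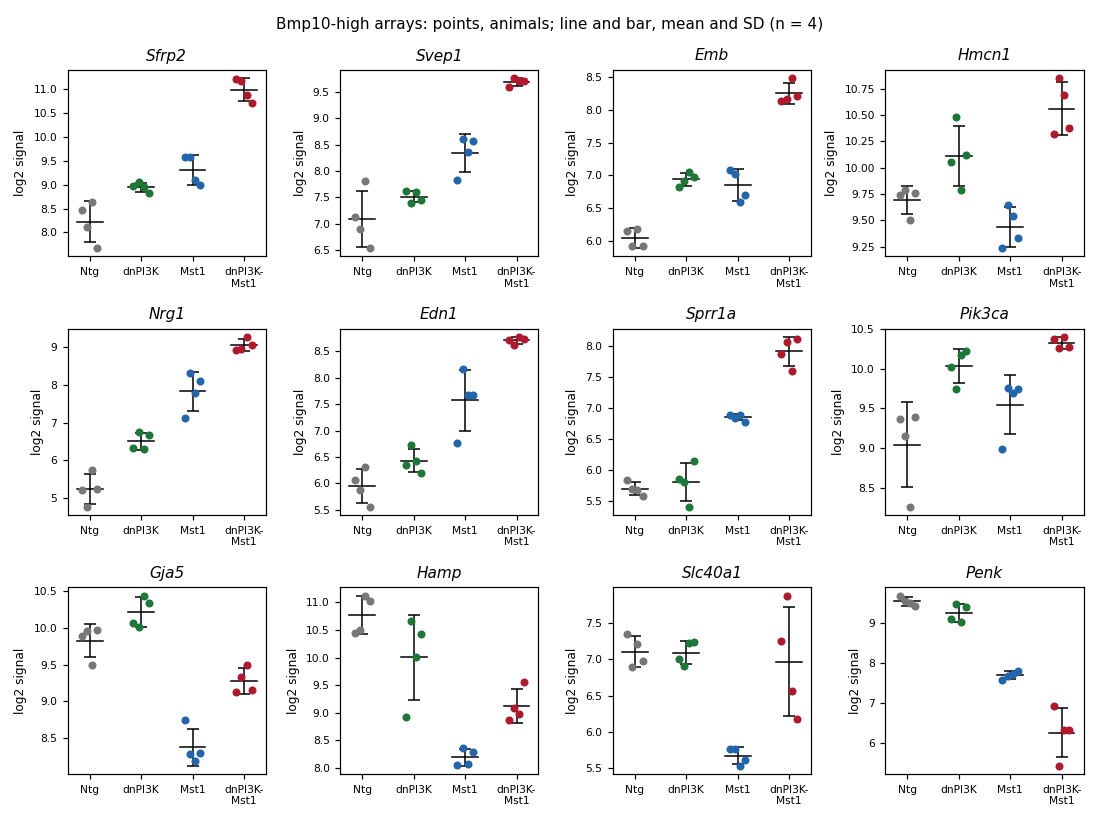
Log2 signal (vertical axes) of 12 named genes in Bmp10-high arrays of the 4 genotypes, with 1 point per animal and a line and bar for the mean and SD (n = 4). The dnPI3K-Mst1 points lie above all Mst1 points in 11 panels and below them for Penk.

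The same transgene without Mst1 was examined in dnPI3K against Ntg, which shares no array with the main comparison. Limma called 138 genes there (0.907%), 37 higher (0.243%) and 101 lower (0.664%), and after centring each array on its median 17% of 112 calls were higher in place of 26.8%. The count was 68 without Ntg 1657, 77 without dnPI3K 1648, 83 without Ntg 1301, 88 without Ntg 1834 and 91 without dnPI3K 1507. Of the 108 genes 5 were called there in the same direction, and the 100 higher genes had a median of 0.16 there (-0.03 for all genes). Nrg1 rose by 1.26 ± 0.18 (adjusted p = 0.0039), Pik3ca by 0.99 ± 0.21 (adjusted p = 0.034), Emb by 0.90 ± 0.11 (adjusted p = 0.0017) and Mest by 0.81 ± 0.16 (adjusted p = 0.027). Sfrp2 was at 0.73 ± 0.17 (adjusted p = 0.064), Svep1 at 0.42 ± 0.20 and Slc40a1 at -0.02 ± 0.13, not called. Among the falls were Ckmt2 (-1.11 ± 0.11, adjusted p = 0.00032) and Ckm (-0.64 ± 0.11, adjusted p = 0.0083).

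The non-additivity term tested whether the dnPI3K effect differed with and without Mst1. It was called for 33 genes (0.217%), 29 with a more positive dnPI3K effect in the presence of Mst1 (0.191%) and 4 with a more negative one (0.0263%), and for 6 of the 108. The term contains the main comparison, whose values chose the 108, so these 6 are no independent result. The count was 76 without Mst1 1466 and 51 without Ntg 1834. It was 9 to 21 without any 1 of Ntg 1657, Ntg 1301, dnPI3K 1648, Mst1 1838, Mst1 1839, Mst1 1840 or the 4 dnPI3K-Mst1 animals. Sprr1a had a term of 0.95 ± 0.19 (adjusted p = 0.042), Cacna1g of 1.16 ± 0.19 (adjusted p = 0.012) and Marchf11 of -1.10 ± 0.19 (adjusted p = 0.014). The Marchf11 term is of uncertain size, because among these groups only the Mst1 mean lay above the filter of 4.48 log2. Sfrp2 (0.95 ± 0.25, adjusted p = 0.13), Nrg1 (-0.04 ± 0.30, adjusted p = 0.98) and Gja5 (0.51 ± 0.20, adjusted p = 0.38) had no called term. The 5 largest called terms belonged to genes that dnPI3K changed without Mst1: the growth factor binding protein Igfbp5 (1.52 ± 0.27), the secreted protease Adamts8 (-1.44 ± 0.29), the receptor Gpr158 (1.20 ± 0.21), the secreted factor Ndnf (-1.20 ± 0.19) and the vasodilator adrenomedullin, Adm (1.20 ± 0.19). In dnPI3K against Ntg these genes were at -1.20, 1.73, -1.03, 1.28 and -0.87, all called, and in dnPI3K-Mst1 against Mst1 they were at 0.32, 0.28, 0.16, 0.08 and 0.33, none called. Mean levels in Ntg, dnPI3K and Mst1 were 11.17, 9.97 and 9.94 for Igfbp5 and 5.83, 7.56 and 6.98 for Adamts8. They were 7.61, 6.58 and 5.27 for Gpr158, 7.26, 8.55 and 7.82 for Ndnf and 9.21, 8.35 and 8.58 for Adm. Each mean thus lay on the same side of Ntg in Mst1 as in dnPI3K.

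The Bmp10-low array of the same 8 animals is the other atrium and no independent sample. There limma called 132 genes (0.867%), 91 higher (0.598%) and 41 lower (0.269%), a split that was 29 and 31 after centring each array on its median. The count was 0 without Mst1 1838 or Mst1 1839, 1 without Mst1 1840, 7 without dnPI3K-Mst1 1509 and 329 without Mst1 1466. Of the 108 genes 31 were called in both chambers in the same direction, 28.7% of the 108 and 23.5% of the 132, and all 108 had a difference of the same sign. The 100 higher genes had a median of 0.62 there (-0.0025 for all genes) and 0.74 in the Bmp10-high arrays, whose values chose them. Sfrp2 rose by 1.67 ± 0.25 in the Bmp10-low arrays, Hmcn1 by 1.01 ± 0.16, Svep1 by 0.88 ± 0.12 and Vegfd by 1.06 ± 0.13, whereas Mest (0.21 ± 0.17), Ifit3 (0.12 ± 0.19) and Penk (-0.33 ± 0.37) were not called. Ckmt2, not called in the Bmp10-high arrays, fell by 1.17 ± 0.22 here (adjusted p = 0.038), and Ckm was at -0.42 ± 0.21, not called.

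**Figure D5:**
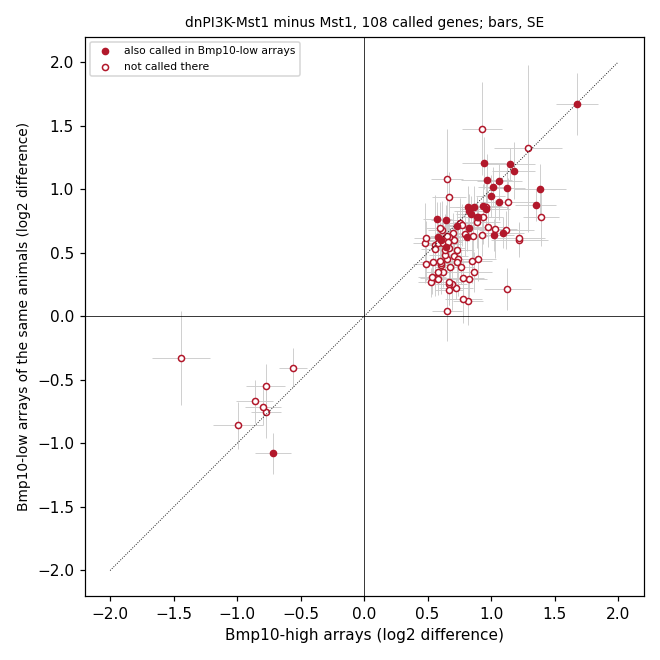
Log2 difference between dnPI3K-Mst1 and Mst1 for the 108 called genes in Bmp10-high arrays (horizontal axis) and in the Bmp10-low arrays of the same animals (vertical axis), with SE bars, a dotted line of equal values and filled points for the 31 genes called in both. All points lie in the quadrants of equal sign.

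The difference between the chambers was tested within animals, and none of the 108 genes was called. The 1 gene called of 15219 (0.00657%) was Atp6v0a4, a proton pump subunit (1.38 ± 0.14, adjusted p = 0.0012), and 647 genes were at an unadjusted p under 0.05. Atp6v0a4 read 5.40, 5.62, 5.18 and 5.54 in Mst1 and 5.62, 6.09, 6.01 and 5.86 in dnPI3K-Mst1 in Bmp10-high arrays (0.46 ± 0.13, adjusted p = 0.18). In the Bmp10-low arrays it read 7.29, 7.60, 7.05 and 7.12 against 6.10, 6.43, 6.31 and 6.53 (-0.92 ± 0.13, adjusted p = 0.024), lower in every double transgenic animal. With a variance trend in the fit no gene was called, and without dnPI3K-Mst1 1647 there were 4. Penk had the term -1.11 ± 0.20 (adjusted p = 0.39) and Mest 0.91 ± 0.23 (adjusted p = 0.98), neither called.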

How the data were processed

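RNA from each atrium (100 ng per array) was hybridised to Affymetrix Mouse Gene 1.0 ST arrays, per the labels' protocols. The values are log2 signals of 35512 probe sets as deposited, and the submitters' processing notes name Affymetrix Expression Console and PLIER without version or role. Values from 1.16 to 14.08 gave the log base, and how the arrays were scaled is not given in the sources used here, so no further scaling was applied. Of the probe sets 21789 carried 1 gene symbol in the platform annotation, 1621 several and 12102 none. Probe sets with 1 symbol entered the analysis. The brightest probe set stood for each of 999 genes with several. Genes with a mean under 4.48 log2, the 30th percentile, were left out, which left 15219.

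Each contrast was fitted with limma 3.58.1 in R 4.3.3 (lmFit, then eBayes with a variance trend, without it for the difference between chambers), two-sided, with Benjamini-Hochberg adjustment over all genes tested. The 8 arrays alone entered the main fit. Non-additivity is the dnPI3K effect with Mst1 less that without it, over the Bmp10-high arrays of 16 animals. The number of arrays limits the precision. Among 8 arrays the highest pairwise correlation was 0.991, so none was a duplicate. On simulated data of 15219 genes with 200 changed, this comparison recovered 21%, 89.5% and 99.5% of changes of 0.5, 1 and 2 log2, with 0, 10 and 6 false calls.

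Named genes are the 12 largest rises and falls among called genes with groups that do not overlap (Xist, Y-linked and unnamed genes aside). Up to 4 called members of each of 47 gene lists and 12 set genes were added. So were the genes with the 5 largest called terms of non-additivity and the 1 called for the difference between chambers. The text gives a selection. The members and lists were chosen with earlier results of these data known. Of the 108 called genes 30 belong to a list. Alternatives were other scalings, filters, probe set rules, weights, sets of arrays and each animal left out.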

Additional observations from a re-analysis of the deposited data

Results flagged for a closer look

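In 4 of 108 groups of 4 animals, over the named genes, 1 animal lay far from the others by Dixon's criterion. Chance alone meets that criterion in about 1 of 20 independent groups. These groups come from the same 8 animals, and 38 of the named genes were chosen among called genes. The share found can therefore not be set against chance. In 3 of these groups the animal was Mst1 1466. Tppp3 was at 7.68 log2 in that animal, against 8.22 to 8.33 in the other Mst1 animals, and Pik3ca at 8.99 against 9.69 to 9.76. Bmp10, at 11.42 against 12.44 to 12.55, chose the arrays, so its value is a description only. The other was Ifi205 in Mst1 1839, at 6.20 against 6.42 to 6.46. Without Mst1 1466 the difference was -0.93 for Tppp3 and 0.60 for Pik3ca.

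For 8 named genes the dnPI3K effect in Bmp10-high arrays differed with and without Mst1 by limma's non-additivity term. Igfbp5, Adamts8, Gpr158, Ndnf and Adm were named for their called terms, so their part in this count was fixed in advance. These terms, in log2, were 1.52 for Igfbp5, -1.44 for Adamts8, 1.20 for Gpr158, -1.20 for Ndnf, 1.20 for Adm, 1.16 for Cacna1g, -1.10 for Marchf11 and 0.95 for Sprr1a. In Bmp10-high arrays of every genotype but Mst1 the mean of Marchf11 was under the filter of 4.48 log2. The size of the Marchf11 term is therefore uncertain. Sprr1a averaged 5.69 in Ntg and 5.80 in dnPI3K and 6.85 in Mst1 and 7.91 in dnPI3K-Mst1. Atp6v0a4 was named because it was called for a difference between the chambers (1.38 log2). Its level was higher in dnPI3K-Mst1 than in Mst1 in Bmp10-high arrays and lower in Bmp10-low arrays.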

How the results depend on the processing

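The main comparison gave 90 to 135 calls under other scalings, filters and probe set rules, with all genotypes in 1 fit, without the trend or with a minimum of 1.5-fold. Bmp10 thresholds of 8 and 10 kept the same 8 arrays, so their 108 calls were fixed in advance. It gave 625 with array weights, 334 on the mean of both arrays of an animal and 53 on arrays labelled left; leaving out 1 animal gave 7 to 379. The Bmp10-low arrays gave 60 after centring on array medians and 0 to 329 with 1 animal left out. The difference between chambers gave 0 with a variance trend and 1 to 4 with 1 animal left out. With 1 animal left out, dnPI3K against Ntg gave 68 to 124 and non-additivity 9 to 76. Of 38 named called genes 12 were called in each of the 13 other settings that tested them (11 for Marchf11). In each of the 8 fits without 1 animal 5 were called, and none turned its direction. The Bmp10 thresholds of 8 and 10 could not change a gene's call among the 13 settings. Nor could the 1.5-fold minimum, which was not applied in this count of genes. Uncalled values that turned sign were Bmp10 with array weights (-0.0604), on the mean of both arrays (-0.19) and without Mst1 1466; leaving out 1 animal gave -0.12 to 0.26. On the mean of both arrays Atp6v0a4 was at -0.23, Adamts8 at -0.0660 and Ndnf at -0.14. Atp6v0a4 was at -0.00915 on arrays labelled left, and Ndnf was at -0.013 to 0.20 with 1 animal left out. The cause was not tested. No paired analysis was possible because animal numbers are not shared between genotypes. With 4 animals per group, changes of 0.5 log2 were mostly missed in simulated data.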

Other observations

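Among called genes outside the lists, chosen after their values were seen, 3 act in sterol and fatty acid synthesis or transport. Fdft1, squalene synthase, averaged 6.43 ± 0.11 log2 (SD, n = 4) in Mst1 and 7.10 ± 0.11 in dnPI3K-Mst1 (0.67 ± 0.11, adjusted p = 0.016). Stard4, a carrier of cholesterol between membranes, rose by 0.77 ± 0.13, and the fatty acid desaturase Scd2 by 0.64 ± 0.12. In each the groups did not overlap. Esr1, the estrogen receptor alpha gene, read 5.97 to 6.20 in Mst1 and 6.66 to 6.75 in dnPI3K-Mst1 (0.61 ± 0.10, adjusted p = 0.016). Sost, the Wnt antagonist sclerostin, rose by 0.76 ± 0.11 and was called in 6 of the 8 fits without 1 animal.

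The macrophage and monocyte list had no lower gene with or without Mst1 1466. Outside the list, chosen after their values were seen, some called genes are known from myeloid cells. In the 8 arrays the phagocyte oxidase gene Cybb rose by 0.65 ± 0.13, the lectin Mgl2 by 0.63 ± 0.11, the receptor Pilra by 0.61 ± 0.11 and Adgre4 by 0.56 ± 0.11. Without Mst1 1466 the lectin receptor Clec12a was also called higher, by 1.19 ± 0.12, while the lectin Clec4d (-1.68 ± 0.21), the chemokines Ccl9 (-1.23 ± 0.20) and Ccl6 (-0.99 ± 0.17) and Ms4a4a (-1.20 ± 0.25) were called lower. The stress-induced factor Atf3 was at -1.08 ± 0.19 in that fit and was also called. None of these falls was called with Mst1 1466 included, and what sets that animal apart was not tested.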
